A study of Mus musculus with 8 samples.

Results

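The secreted Wnt antagonists and the Dickkopf receptor Kremen1 were described as a set of 10 genes, Dkk1, Dkk2, Dkk3, Sfrp1, Sfrp2, Sfrp4, Sfrp5, Frzb, Wif1 and Kremen1. They were chosen by symbol from the 20701 gene symbols of the count table, and 9 of them were among the 13769 genes with enough counts to be tested. Sfrp4 was removed by the filter on low counts. Hearts of 8 mouse embryos of strain C57BL/6 were taken at E10.5, the outflow tract (OFT) was dissected together with the right ventricle (RV), and 1 RNA-seq library was made from each embryo. The 4 control embryos (CTRL) carry the genotype label wild type. The other 4 embryos (Isl1_hypo) are hypomorphic for Isl1, a LIM-homeodomain transcription factor of second heart field progenitors. They carry the f;neo allele on both chromosomes. The allele lowers Isl1 wherever the gene is active and not in a chosen cell type. The dissected tissue holds cardiomyocytes together with other cell types, and the sex of the embryos is not given in the labels.

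Wnt proteins bind Frizzled receptors, and the canonical branch of the pathway also needs the co-receptors Lrp5 and Lrp6 to stabilise beta-catenin. Antagonists act outside the cell mainly by 2 routes. The Dickkopf protein Dkk1 occupies the co-receptors, and the membrane protein Kremen1 binds Dkk1 and helps to remove them from the cell surface. Secreted frizzled-related proteins (Sfrp1, Sfrp2, Sfrp4, Sfrp5 and Frzb, also called Sfrp3) and Wif1 instead bind Wnt proteins themselves. In the early heart, canonical Wnt signalling acts on the proliferation and differentiation of second heart field progenitors, the cells that build the outflow tract and right ventricle.

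Of the 9 members tested, 1 passed the edgeR quasi-likelihood test at an adjusted p under 0.05, and this was Dkk1, against 0.269% of all genes tested in either direction and 0.123% called lower. Dkk1 fell in Isl1_hypo embryos to 34.8% of its CTRL mean. Frzb, Kremen1, Sfrp2 and Dkk2 had lower means in Isl1_hypo without passing this test, and Dkk3, Sfrp5 and Wif1 had higher ones without passing it. The levels of Sfrp1 differed by less than the spread between embryos.

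The promoters of the 3 members whose levels did not overlap between the groups, Dkk1, Frzb and Sfrp2, are shown first. Each is the 250 bases before the start site in RefSeq (table of build GRCm38.p6), found at a single exact match in mm9, the build of the counts. Capitals mark 2 kinds of short word searched on both strands, the TCF/LEF word and the homeodomain core. The TCF/LEF word was taken as CTTTGAA or as any of its variants with other last bases, namely CTTTGAT and further CTTTGTA and also CTTTGTT. The homeodomain core was taken as TAAT, which reads as ATTA on the opposite strand. None of these words overlaps another in the windows shown.
Dkk1 promoter, chr19:30623987-30624236, minus strand: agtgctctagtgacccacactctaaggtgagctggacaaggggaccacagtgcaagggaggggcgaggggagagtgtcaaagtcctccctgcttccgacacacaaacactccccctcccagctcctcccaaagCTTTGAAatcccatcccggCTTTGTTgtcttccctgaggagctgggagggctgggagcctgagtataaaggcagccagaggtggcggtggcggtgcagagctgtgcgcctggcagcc
Frzb promoter, chr2:80287554-80287803, minus strand: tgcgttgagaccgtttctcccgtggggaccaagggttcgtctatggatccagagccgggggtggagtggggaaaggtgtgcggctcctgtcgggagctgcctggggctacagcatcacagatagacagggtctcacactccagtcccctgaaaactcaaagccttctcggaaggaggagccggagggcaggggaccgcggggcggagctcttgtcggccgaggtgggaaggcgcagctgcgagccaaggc
Sfrp2 promoter, chr3:83569993-83570242, plus strand: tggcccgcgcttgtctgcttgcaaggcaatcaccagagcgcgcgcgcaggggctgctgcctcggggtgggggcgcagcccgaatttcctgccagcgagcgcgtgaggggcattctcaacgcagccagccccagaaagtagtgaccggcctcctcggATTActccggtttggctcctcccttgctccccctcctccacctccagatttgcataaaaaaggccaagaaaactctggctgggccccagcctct
The Dkk1 window held 2 TCF/LEF words, CTTTGAA at 117 and CTTTGTT at 98 bases upstream of the start. Among all 32851 mouse promoters of this length in the table, 14.8% held at least 1 such word and 1.43% held 2 or more. No such word was found in the windows of Frzb and Sfrp2. The core TAAT was found once, on the opposite strand of the Sfrp2 window at 94 bases upstream, and 54.9% of all promoters held it. In the gene models used for coordinates below, Dkk1 and Frzb start further upstream than in RefSeq, so those models reach into the windows shown. The Dkk1 model begins at 30624155, so both of its TCF/LEF words lie inside that model and are upstream of the RefSeq start only. Promoters of Dkk2, Sfrp5 and Wif1 were matched as well, which makes 6 of the 10 members, and they held neither kind of word. Dkk3, Kremen1, Sfrp1 and Sfrp4 are named only.

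Each library held between 18422245 and 46678973 counts with 1 transcript kept per gene, 29748458 to 46678973 in CTRL and 18422245 to 33050298 in Isl1_hypo. The library Isl1_hypo 3 stood apart, at 72 on the first principal component of the 1000 most variable genes against -17.73 to 3.97 for the other 7 libraries. The library Isl1_hypo 1 stood apart in the epithelial markers Cldn6 (38.5 CPM, against 0.199 or less elsewhere) and Cdh1 (15.3 CPM, against 0.311 or less), and together with CTRL 1 in mesenchyme markers. Member results that turn on these libraries are therefore given with and without them. Globin genes took 0.212% to 1.19% of the counts in CTRL and 1.18% to 2.44% in Isl1_hypo, and reads of Y-linked genes marked 1 of the 4 CTRL and 3 of the 4 Isl1_hypo embryos. The part of blood and sex in the results was not tested beyond the fits that take them as covariates. Expression is given as CPM, the counts of a gene divided by the TMM-scaled size of its library, and levels of different genes are compared only as CPM per kb of transcript.

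Isl1, the targeted gene (chromosome 13, 117088478 to 117099896), checked the labels. It stood at 29.6, 61.5, 46.2 and 51.3 CPM in CTRL 1 to 4 and at 12.7, 6.86, 7.71 and 11.4 CPM in Isl1_hypo 1 to 4. The groups did not overlap. The mean fell to 20.5% of CTRL, with log2FC = -2.29 (SE 0.26, adjusted p = 0.0077 by edgeR), where log2FC is the log2 fold change of Isl1_hypo against CTRL.

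Dkk1 lies on chromosome 19 (30620353 to 30624155, minus strand). Its level was 26.7, 35.0, 26.7 and 26.3 CPM in CTRL 1 to 4 and 15.04, 6.48, 7.52 and 10.9 CPM in Isl1_hypo 1 to 4. The highest Isl1_hypo embryo stood well below the lowest CTRL embryo. The mean was 28.7 CPM ± 4.21 in CTRL and 9.98 CPM ± 3.86 in Isl1_hypo (SD, n = 4 each). Its log2FC was -1.53 (SE 0.25, 95% interval -2.07 to -0.99, adjusted p = 0.0342 by edgeR), and its p-value ranked 21 among the 13769 genes. In RNA from whole tissue, fewer cells that express a gene and less RNA per cell cannot be told apart, and this holds for every level given here.

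The fall of Dkk1 was of similar size without any 1 library, but its adjusted p was not under 0.05 in all of these fits. Without Isl1_hypo 3 log2FC was -1.42 (adjusted p = 0.0478), and without Isl1_hypo 1 it was -1.79 (adjusted p = 0.0146). Leaving out any of the other 6 libraries gave -1.58 to -1.37 with adjusted p between 0.0532 and 0.119. DESeq2 gave the same size, -1.53, with an adjusted p of 1.16e-06. The call was lost with globin level (log2FC -1.27, adjusted p = 0.9998) or Y-linked level (log2FC -1.71, adjusted p = 0.157) as a covariate and with the replicate number as a block (log2FC -1.58, adjusted p = 0.102). The globin shares of the groups barely overlapped, and Isl1 itself lost its call with globin level (adjusted p = 0.507 by edgeR). Globin level and genotype cannot be fully told apart in that fit.

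Dkk2, a Dickkopf that can inhibit or weakly activate the pathway depending on the receptors present, lies on chromosome 3 (131748256 to 131843257, plus strand). It stood at 16.9, 9.40, 12.8 and 9.85 CPM in CTRL 1 to 4 and at 20.3, 4.87, 2.72 and 5.50 CPM in Isl1_hypo 1 to 4. The groups overlapped through a single embryo, since Isl1_hypo 1 had the highest level of all 8 and the other 3 Isl1_hypo embryos had the lowest. The fit gave a log2FC of -0.57 for Dkk2 (SE 0.51, 95% interval -1.68 to 0.54, adjusted p = 0.681). Without Isl1_hypo 1 it was -1.49 (SE 0.31), with an unadjusted p of 0.000586 and an adjusted p of 0.0937, and without Isl1_hypo 3 it was -0.27.

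Dkk3, the most divergent Dickkopf, which does not act on the co-receptors as Dkk1 does, lies on chromosome 7 (119259533 to 119302571, minus strand). The CTRL embryos 1 to 4 stood at 113, 68.4, 78.2 and 69.4 CPM and the Isl1_hypo embryos 1 to 4 at 121.9, 129, 107.5 and 127 CPM. A single CTRL embryo, CTRL 1, lay within the range of Isl1_hypo, and the other 3 lay below it. The mean was 82.3 CPM ± 21.0 in CTRL and 121.4 CPM ± 9.77 in Isl1_hypo (SD, n = 4 each). Its log2FC was 0.56 (SE 0.16, 95% interval 0.22 to 0.91), with an unadjusted p of 0.00419 and an adjusted p of 0.203 by edgeR. DESeq2 (adjusted p = 0.0420) and limma-voom (adjusted p = 0.0151) called Dkk3, while without CTRL 1 the edgeR log2FC was 0.75 (adjusted p = 0.0631).

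Kremen1, the receptor for Dkk1, lies on chromosome 11 (5091555 to 5161561, minus strand). Its levels were 55.1, 44.6, 65.9 and 57.7 CPM in CTRL 1 to 4 and 46.4, 51.5, 30.9 and 43.4 CPM in Isl1_hypo 1 to 4. The groups overlapped, and the lowest value was that of Isl1_hypo 3. The fit gave a log2FC of -0.38 for Kremen1 (SE 0.17), with an adjusted p of 0.42, and it was -0.25 without Isl1_hypo 3.

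**Figure D1:**
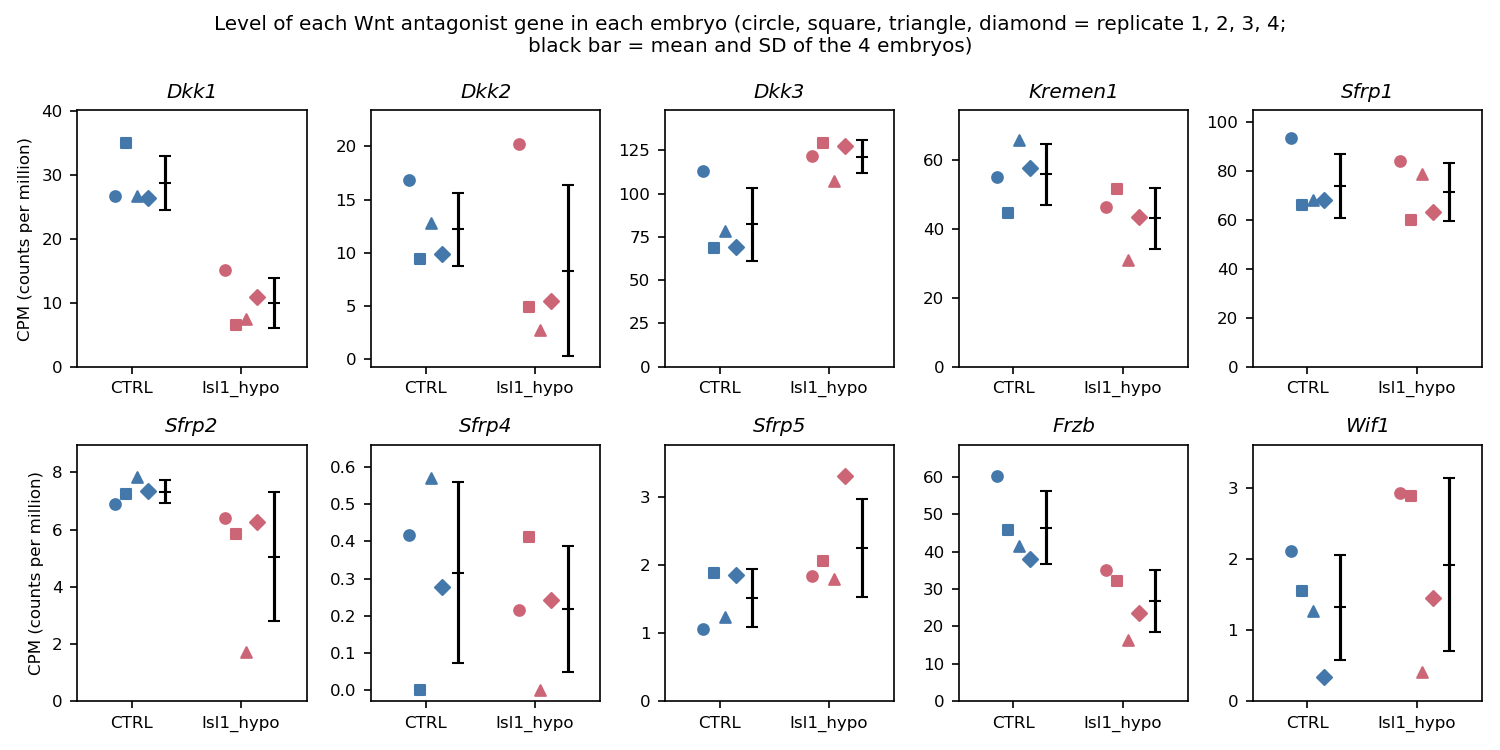
Level of each of the 10 genes in each embryo, in CPM on a linear axis for CTRL (blue) and Isl1_hypo (red); symbols give the replicate number and black bars the mean and SD of 4 embryos. The groups do not overlap for Dkk1, Frzb and Sfrp2, and Isl1_hypo 1 (circle) is the only Isl1_hypo embryo high in Dkk2.

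Among the antagonists that bind Wnt proteins, Frzb had the largest difference in mean level. Frzb lies on chromosome 2 (80252127 to 80287782, minus strand). It stood at 60.2, 45.6, 41.5 and 38.1 CPM in CTRL 1 to 4 and at 35.0, 32.0, 16.4 and 23.6 CPM in Isl1_hypo 1 to 4. Every Isl1_hypo embryo was below every CTRL embryo. The Isl1_hypo mean was 57.8% of the CTRL mean, 26.8 CPM ± 8.42 against 46.3 CPM ± 9.74 (SD, n = 4 each). Its log2FC was -0.79 (SE 0.23, 95% interval -1.30 to -0.29), with an unadjusted p of 0.00512 and an adjusted p of 0.215 by edgeR. DESeq2 called Frzb at a log2FC of -0.79 (adjusted p = 0.0371), and limma-voom did not (log2FC -0.59, adjusted p = 0.136). Without Isl1_hypo 3, the embryo with the lowest level, the edgeR log2FC was -0.62 (adjusted p = 0.241).

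Sfrp2 lies on chromosome 3 (83570243 to 83578238, plus strand). It stood at 6.88, 7.23, 7.85 and 7.33 CPM in CTRL 1 to 4 and at 6.41, 5.85, 1.71 and 6.26 CPM in Isl1_hypo 1 to 4. The groups did not overlap, but 3 of the Isl1_hypo embryos lay close to CTRL and only Isl1_hypo 3 lay far below. The fit gave a log2FC of -0.54 for Sfrp2 (SE 0.35, 95% interval -1.31 to 0.23, adjusted p = 0.565), and without Isl1_hypo 3 it was -0.25 (adjusted p = 0.718). Of its exons, 347 bases are shared with the antisense gene Gm16790, and the counts ignored strand, so reads of both cannot be told apart there.

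Sfrp1 (chromosome 8, 24521974 to 24560104, plus strand) had the highest mean level per length of the frizzled-related genes, although it overlapped with Frzb in CTRL. Its levels were 93.6, 66.2, 68.1 and 68.0 CPM in CTRL 1 to 4 and 84.2, 59.9, 78.6 and 63.1 CPM in Isl1_hypo 1 to 4. The groups overlapped over most of their range. Sfrp1 had a log2FC of -0.05 (SE 0.15, adjusted p = 0.925), and its 95% interval of -0.38 to 0.28 bounds the difference on either side. Without CTRL 1 its sign turned, to 0.08.

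Sfrp5, Wif1 and Sfrp4 were the members of lowest level. Sfrp5, a close relative of Sfrp1 (chromosome 19, 42272461 to 42276742, minus strand), stood at 1.06 to 1.89 CPM in CTRL and at 1.80 to 3.32 CPM in Isl1_hypo. The upper end was set by Isl1_hypo 4, and the other 3 Isl1_hypo embryos lay between 1.80 and 2.06 CPM. The fit gave a log2FC of 0.58 for Sfrp5 (SE 0.40, 95% interval -0.31 to 1.46, adjusted p = 0.590), and without Isl1_hypo 4 it was 0.33. With the mesenchyme or epicardium markers described below as a covariate it was 0.23 or 0.25.

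Wif1, which binds Wnt proteins through a domain of its own (chromosome 10, 120471016 to 120537706, plus strand), stood at 2.11, 1.55, 1.27 and 0.342 CPM in CTRL 1 to 4. In Isl1_hypo 1 to 4 it stood at 2.93, 2.89, 0.411 and 1.45 CPM. Both groups spanned most of the range of the other. For Wif1 the fit gave a log2FC of 0.54 (SE 0.67, 95% interval -0.93 to 2.01, adjusted p = 0.780), and the interval reached far to both sides of 0. It ran from 0.22 without CTRL 4 to 0.88 without Isl1_hypo 3 and was 0.27 without Isl1_hypo 1, and limma-voom gave 1.04.

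Sfrp4 (chromosome 13, 19714973 to 19724863, plus strand) had 13, 0, 23 and 13 counts in CTRL 1 to 4 and 4, 11, 0 and 7 counts in Isl1_hypo 1 to 4. A count of 0 allows a level of up to 0.0738 CPM in CTRL 2 and up to 0.0948 CPM in Isl1_hypo 3 (3 counts, counting error only). Levels in the 2 groups overlapped, and an exact 2-sided permutation test of the group difference in log2 CPM gave p = 0.543. At counts this low the test cannot bound a difference.

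**Figure D2:**
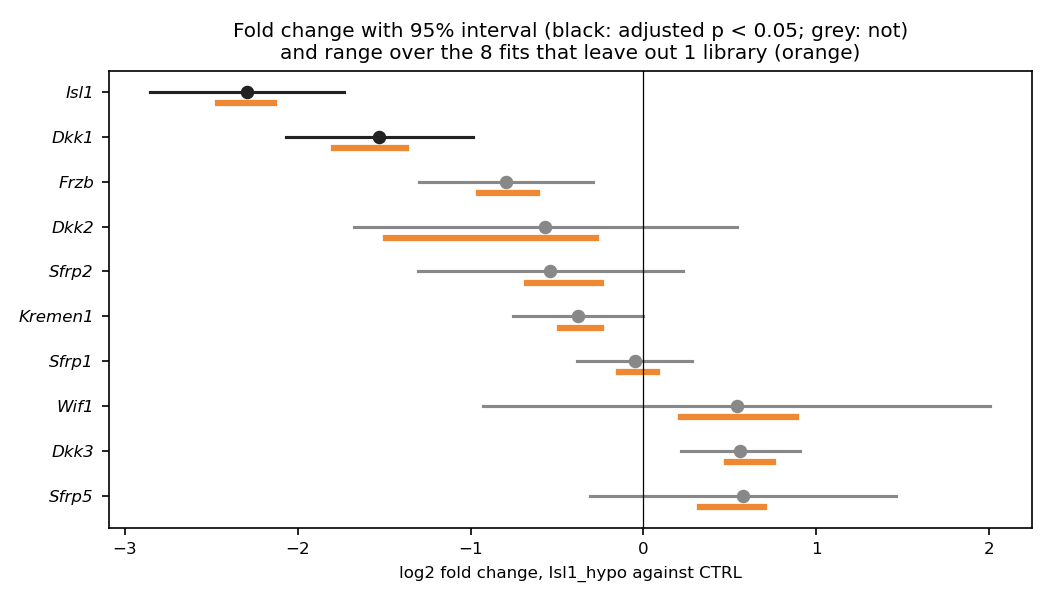
Log2 fold change of Isl1_hypo against CTRL for Isl1 and the 9 members tested, with its 95% interval (black where the adjusted p is under 0.05, grey elsewhere) and, in orange, the range over 8 fits that each leave out 1 library. Only Isl1 and Dkk1 are black, and the orange range of Dkk2 runs from -1.49 to -0.27.

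Across the set, 6 of the 9 members tested had a negative and 3 a positive log2FC, with a median of -0.38 against 0.01 over all genes tested. At an unadjusted p under 0.05 there were 4 members, with Dkk1, Frzb and Kremen1 lower and Dkk3 higher, against 11.9% of all genes tested (6.17% lower and 5.69% higher). By the criterion of the study's methods, an unadjusted p under 0.05 and an absolute log2 fold change above 0.58, Dkk1 and Frzb were lower and no member was higher. Among all genes tested 5.16% met it, 2.89% lower and 2.27% higher. For 3 members the groups did not overlap, each with Isl1_hypo lower. This held for 8.5% of all genes tested, 4.44% with Isl1_hypo lower and 4.06% with Isl1_hypo higher. The median of the members was -0.17 without Isl1_hypo 3, over 10 members in place of 9, because Sfrp4 passed the filter in that fit. With a covariate it was -0.37 (Y-linked level), -0.0013 (globin level), -0.03 (mesenchyme markers) and 0.04 (epicardium markers), so its negative sign was not kept in the last of these fits.

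The 3 Dickkopf genes and Kremen1 together had a median log2FC of -0.47, with Dkk1, Dkk2 and Kremen1 negative and Dkk3 positive. The 5 tested genes that bind Wnt proteins had a median of -0.05, with Frzb, Sfrp2 and Sfrp1 negative and Sfrp5 and Wif1 positive.

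Per transcript length, Dkk3 was the most abundant member in both groups, at 24.6 CPM per kb ± 6.28 in CTRL and 36.3 CPM per kb ± 2.92 in Isl1_hypo (SD, n = 4 each). In CTRL it was followed by Sfrp1 at 16.9, Frzb at 15.9, Dkk1 at 12.9 and Kremen1 at 11.4 CPM per kb, and each of these overlapped with its neighbour over the 4 embryos. A gap separated Kremen1 from Sfrp2 at 3.67 and Dkk2 at 3.31 CPM per kb. A further gap separated Dkk2 from Sfrp5 at 0.798, Wif1 at 0.591 and Sfrp4 at 0.181 CPM per kb. In CTRL the set thus fell into an abundant, an intermediate and a low tier.

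In Isl1_hypo the order of the mean levels was Dkk3, Sfrp1, Frzb, Kremen1, Dkk1, Sfrp2, Dkk2, Sfrp5, Wif1 and Sfrp4. Dkk3 and Sfrp1 were each separate from the next gene. From Frzb at 9.20 CPM per kb downward, every gene overlapped with its neighbour. Dkk1, in the abundant tier of CTRL, stood at 4.47 CPM per kb and overlapped with Sfrp2 at 2.53 CPM per kb.

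**Figure D3:**
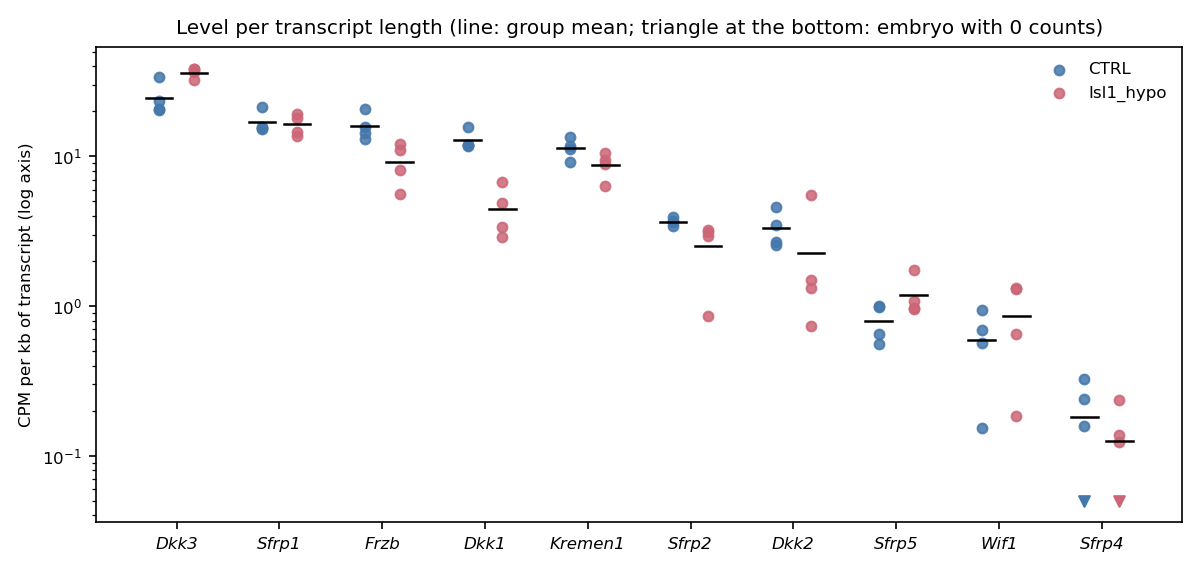
Level per transcript length of the 10 genes, ordered by their CTRL mean, in CPM per kb on a log axis, with 1 point per embryo, lines for group means and triangles for embryos with 0 counts. Dkk3 is highest in both groups, and Dkk1 falls from 12.9 CPM per kb in CTRL to 4.47 in Isl1_hypo.

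The summed level of the 10 genes was 80.6 to 108.8 CPM per kb in CTRL and 68.2 to 95.04 in Isl1_hypo, and the groups overlapped. The make-up of that sum differed more than its size. Dkk1 made up 14.5% ± 3.19 of it in CTRL and 5.38% ± 1.54 in Isl1_hypo (SD, n = 4 each). Frzb made up 17.5% ± 1.51 and 11.01% ± 2.31, and Dkk3 made up 27.0% ± 2.89 and 44.6% ± 4.18. For these 3 genes no embryo of one group fell within the range of the other, and for the other 7 the groups overlapped. The share of Dkk3 lay between 24.4% and 31.0% in CTRL and between 38.3% and 47.1% in Isl1_hypo, so that CTRL 1 stood with its own group on this scale. These shares add up to the whole, so a fall in one raises the others.

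The other genes of the pathway were taken from 6 lists of 67 genes, of which 51 were tested. None passed an adjusted p under 0.05 by edgeR, 11 had an unadjusted p under 0.05 (against 11.9% of all genes tested), and 30 of the 51 had a negative log2FC (against 6762 of all 13769) with a median of -0.09. In the edgeR fits without CTRL 4 and without Isl1_hypo 3, 1 of them passed. DESeq2 called 3 of them, Shisa2, Rspo3 and Nkd2, and limma-voom called Rspo3.

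Of 15 other inhibitors of the pathway, 9 were tested, with a median log2FC of -0.33. Shisa2, which retains Frizzled receptors inside the cell, stood at 17.5, 20.4, 19.3 and 19.5 CPM in CTRL 1 to 4 and at 16.5, 9.14, 11.4 and 9.13 CPM in Isl1_hypo 1 to 4. These groups did not overlap, although Isl1_hypo 1 lay just under the CTRL range (log2FC -0.74, adjusted p = 0.195 by edgeR). Igfbp4, a secreted protein that can bind Wnt receptors, was the most abundant at 219.8 CPM per kb in CTRL. Cer1 was at 0 counts in every library.

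Of 19 ligand genes, 10 were tested, with a median log2FC of 0.00. Wnt5a, a ligand of the non-canonical branch and the most abundant per transcript length, stood at 140.3 CPM in CTRL and 104.7 CPM in Isl1_hypo (log2FC -0.42, adjusted p = 0.298). Wnt9a had a log2FC of 0.57 (adjusted p = 0.395), and its groups did not overlap. Wnt6 had one of 2.998 (adjusted p = 0.415), with Isl1_hypo 1 at 7.28 CPM and every other library at 0.790 CPM or less. Wls, which carries Wnt proteins to the cell surface, was the more abundant of 2 genes of Wnt secretion at 138.8 CPM per kb in CTRL.

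All 16 receptor genes were tested, and 12 had a negative log2FC, with a median of -0.18. Lrp5, one of the co-receptors that Dkk1 occupies, stood at 4.95 to 7.67 CPM in CTRL and at 3.60 to 4.68 CPM in Isl1_hypo. These groups did not overlap (log2FC -0.59, adjusted p = 0.351). Fzd6 had a log2FC of -0.66 (adjusted p = 0.351), and Ptk7, a co-receptor of the planar polarity branch, was the most abundant at 30.8 CPM per kb in CTRL.

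The R-spondins and their Lgr receptors, which raise the number of Wnt receptors on the cell, had 6 of 7 genes tested and a median log2FC of -0.73. Of the 4 with a negative log2FC, Lgr5, Lgr6 and Rspo2 were low, at CTRL means of 2.08, 0.755 and 0.805 CPM. The median thus rests partly on genes of low level. Rspo3 had the smallest p-value of the 51 pathway genes tested. It stood at 121, 108, 134 and 101.3 CPM in CTRL 1 to 4 and at 57.5, 77.0, 82.4 and 75.2 CPM in Isl1_hypo 1 to 4. These groups did not overlap (log2FC -0.67, adjusted p = 0.0688 by edgeR). Lgr4 stood at 78.0 to 82.1 CPM in CTRL and at 92.0 to 194 CPM in Isl1_hypo, the highest being Isl1_hypo 3 (log2FC 0.64, adjusted p = 0.272). Rspo1 had a log2FC of 2.29 at a CTRL mean of 0.543 CPM (adjusted p = 0.283).

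Of 8 genes that respond to canonical signalling, all were tested, and 6 had a positive log2FC with a median of 0.18. Nkd2, a feedback inhibitor inside the cell, stood at 8.96 to 14.2 CPM in CTRL and at 2.80 to 6.86 CPM in Isl1_hypo. The groups did not overlap (log2FC -1.14, adjusted p = 0.153 by edgeR). Myc had a log2FC of 0.35 (adjusted p = 0.312) with every Isl1_hypo embryo above every CTRL embryo, and Ccnd1 was the most abundant at 64.0 CPM per kb in CTRL. Axin2, the feedback gene most often read as an output of the pathway, had a log2FC of 0.23 at an unadjusted p of 0.662.

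**Figure D4:**
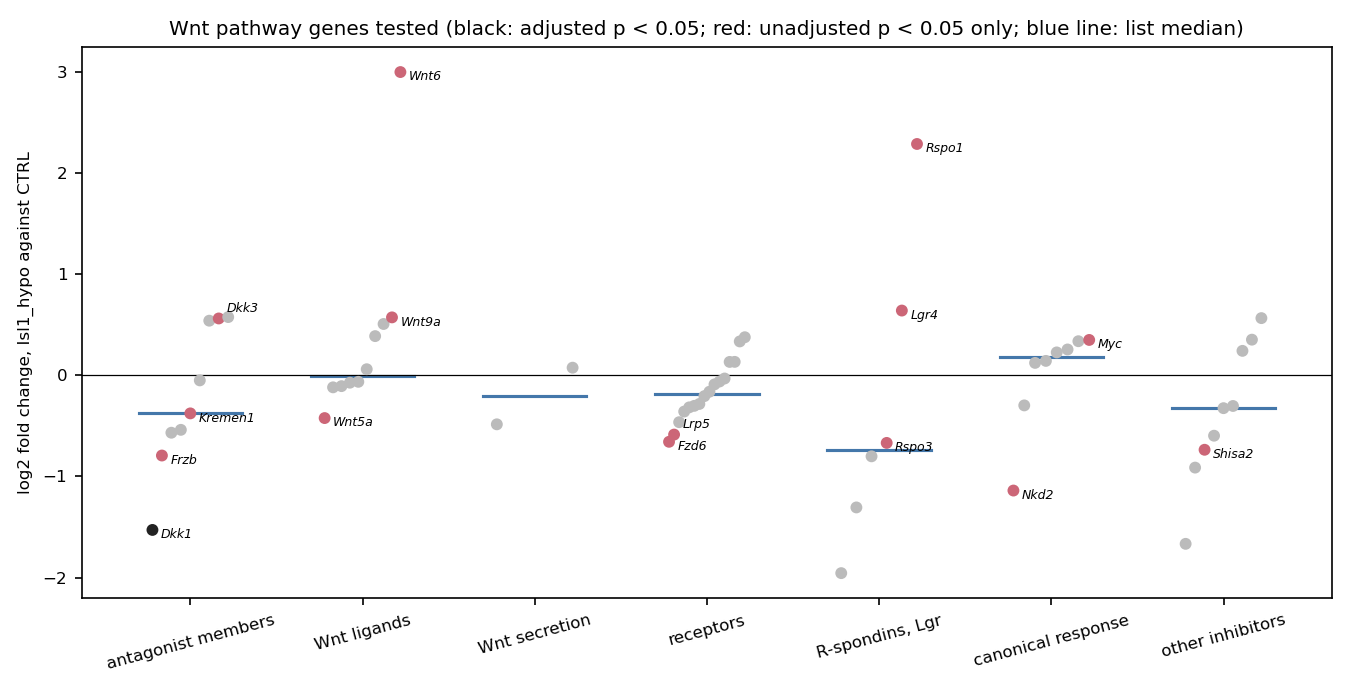
Log2 fold change of Isl1_hypo against CTRL for the tested antagonists (leftmost) and the tested genes of the 6 other pathway lists, with 1 point per gene and a blue line at each median. Dkk1 is the only black point (adjusted p under 0.05), and red points had an unadjusted p under 0.05 only.

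Marker genes of the cell types that the dissection could hold were summed in each library. Cardiomyocyte markers summed to 9942 to 11140 CPM per kb in CTRL and to 8628 to 10890 in Isl1_hypo, with all 8 detected and 6 of 8 negative. Myh6, Myh7 and Ttn were at an unadjusted p under 0.05, with log2FC of -0.31, -0.49 and -0.90. The groups did not overlap for Myh7 and Ttn, which DESeq2 called and edgeR did not. The 6 outflow tract markers summed to 51.8 to 59.5 CPM per kb in CTRL and to 39.2 to 51.4 in Isl1_hypo, without overlap, and 5 of the 6 had a negative log2FC. Sema3c, Tdgf1, Fgf8 and Tbx1 had log2FC of -2.03 to -0.42 without passing the edgeR test, and Hand2 had 0.01. Fgf10, a growth factor of the second heart field, passed the edgeR test among them (log2FC -0.93, adjusted p = 0.0310). The part of this difference in the fall of Dkk1 was not tested.

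Mesenchyme markers summed to 383, 199, 238 and 218 CPM per kb in CTRL 1 to 4 and to 349, 173, 151 and 152 in Isl1_hypo 1 to 4, with 5 of 6 genes negative and none at an adjusted p under 0.05. They were highest in CTRL 1 and Isl1_hypo 1. In both groups that same library had the highest level of Dkk2, Sfrp1, Frzb and Wif1, 4 of the 10 members. In a fit with the mean log2 level of these markers as a covariate, log2FC was -0.03 for Dkk2, -0.51 for Frzb, 0.19 for Sfrp1 and 1.05 for Wif1, against -0.57, -0.79, -0.05 and 0.54 without it. That of Dkk1 was -1.43 in the same fit (adjusted p = 0.179).

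Epicardium markers summed to 28.9 to 172.6 CPM per kb in CTRL and to 204.5 to 355.8 in Isl1_hypo, without overlap. All 6 had a positive log2FC, from 0.86 (Aldh1a2) through 0.95 (Tcf21), 1.07 (Wt1 and Tbx18) and 1.35 (Upk1b) to 1.53 (Upk3b). All but Aldh1a2 had an unadjusted p under 0.05, with none passing the adjusted p by edgeR and Wt1 passing by DESeq2. Dkk3, which had a higher mean in Isl1_hypo without passing the edgeR test, stood highest within CTRL in CTRL 1, the library with the lowest marker sum. In a fit with the mean log2 level of these markers as a covariate, log2FC was 0.98 for Dkk3 (adjusted p = 0.0954), -1.48 for Dkk1 (adjusted p = 0.411), -0.38 for Frzb and 0.04 for Dkk2. Because the marker levels do not overlap between the groups, the marker and the genotype cannot be fully told apart in this fit.

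Epithelial markers summed to 64.3 to 117 CPM per kb in CTRL and to 121.3 to 245.5 in Isl1_hypo. All 4 of the 9 that were tested, Epcam, Krt8, Krt18 and Krt19, were higher at an unadjusted p under 0.05 with none passing the adjusted p by edgeR. DESeq2 called Krt8 and Krt18. Epcam stood high in Isl1_hypo 1 alone, at 9.83 CPM against 1.87 CPM or less in every other library. Shh was at 0 counts in every library, Esrp1 was at 0 in CTRL, and Foxa2 had a mean of 0.0025 CPM per kb in CTRL and 0.0318 in Isl1_hypo. Erythroid markers summed to 3116 to 18330 CPM per kb in CTRL and to 18330 to 38220 in Isl1_hypo, with all 8 positive and Epb42 called by edgeR (log2FC 2.28, adjusted p = 0.0172). In a fit with globin level as a covariate, log2FC was -1.27 for Dkk1, -0.28 for Frzb and 0.86 for Dkk3, and further 2.78 for Wif1 (unadjusted p = 0.00965) and -0.0013 for Dkk2. In that fit no gene of the table passed an adjusted p under 0.05, Isl1 included. At an unadjusted p under 0.05, 504 genes did. The globin share was 0.212% to 1.19% in CTRL and 1.18% to 2.44% in Isl1_hypo. Globin level and genotype therefore cannot be fully told apart in this fit.

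The remaining lists were endothelium, at 186.3 to 221.1 CPM per kb in CTRL and 151.1 to 189.9 in Isl1_hypo, and atrium or inflow, at 18.1 to 23.5 and 16.0 to 19.2. Of the 6 endothelial markers 5 were negative, and the groups did not overlap for Pecam1 (log2FC -0.58, called by DESeq2 and not by edgeR) and Cdh5 (log2FC -0.54). The atrium sum covered differences of opposite sign, since Sln fell (log2FC -2.28, adjusted p = 0.0172 by edgeR) while Nr2f2, Stard10 and Shox2 had log2FC of 0.97 to 1.38 at an unadjusted p under 0.05. DESeq2 called Sln, Nr2f2 and Stard10. Markers of neural crest (at most 2.35 CPM per kb in any library), of liver and yolk sac (at most 1.123) and of macrophages (at most 8.72) were low, with some overlap between the groups in each. Their part in the levels of the members was not tested.

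**Figure D5:**
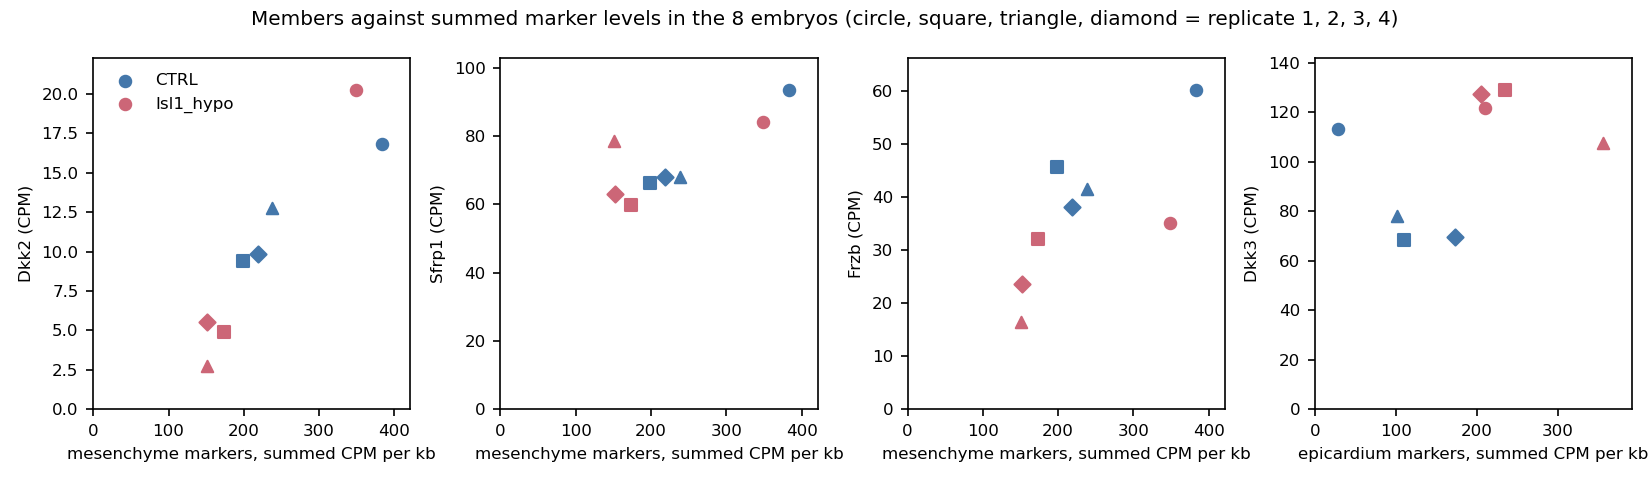
Level in CPM of Dkk2, Sfrp1 and Frzb against the summed mesenchyme markers and of Dkk3 against the summed epicardium markers (CPM per kb), for CTRL (blue) and Isl1_hypo (red) with symbols for the replicate number. CTRL 1 and Isl1_hypo 1 (circles) lie farthest right in the 3 mesenchyme panels, while for Dkk3 the CTRL embryo with the lowest epicardium markers has the highest CTRL level.

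The genes whose log2 CPM over the 8 libraries was most like that of Dkk1 were Zfyve27 (Pearson's r = 0.972), Zfhx4 (r = 0.970) and Isl1 itself (r = 0.968), among 10743 genes with a mean of at least 5 CPM. The libraries of both groups entered these correlations, so each reflects the difference between the groups as well as the spread within them. All 3 were lower in every Isl1_hypo embryo than in any CTRL embryo. Zfhx4, a zinc-finger homeodomain gene, fell by 1.55 on the log2 scale (adjusted p = 0.0342 by edgeR), and Zfyve27 had a log2FC of -0.60 (adjusted p = 0.153).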

How the data were processed

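Polyadenylated RNA of the OFT/RV of 8 single embryos was sequenced on a BGISEQ-500. The authors aligned reads with STAR to mm9 and used HOMER to count exon reads of each RefSeq transcript regardless of strand. The deposited counts are raw whole numbers. The deposited RPKM values, which the authors made from these counts over all 31507 transcripts, served here only as a check. The deposited transcript length was used to compute CPM per kb. Deposited columns of the authors' DESeq2 comparison (fold change, standard error, statistic and p-values) were not used.

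Where a symbol had several transcripts, that of the highest mean count was kept. Each of the 10 members has 1 transcript in the table. Counts were filtered with filterByExpr, scaled by TMM and tested by quasi-likelihood in edgeR 4.0.16 (R 4.3.3), with no covariate and Benjamini-Hochberg adjustment over all 13769 genes. The biological coefficient of variation was 26.4%. Log2 CPM used a prior count of 2. Single values were compared by an exact 2-sided permutation test over 70 assignments, whose smallest p is 0.0286. The script was tested on simulated data. Alternatives used DESeq2 1.42.0, limma 3.58.1 (voom with sample weights), other size factors and filters, every or the longest transcript, the replicate number as a block, globin genes removed, globin or Y-linked level as a covariate and each library left out. Covariates of mesenchyme and epicardium markers were chosen after seeing the data.

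Coordinates are those of GENCODE for mm9 and promoters those of RefSeq. All members and Isl1 were named. From each pathway list up to 3 genes with the smallest p under 0.05 were named, together with the gene of highest CPM per kb, and markers were named where their summed level did not overlap between the groups or where they stood at 0. For Dkk1 the 3 genes most like it were named. Igfbp4, Wls, Ptk7 and Ccnd1 are named as the most abundant of their lists. Axin2, Rspo2, Lgr5, Lgr6, Sln, Nr2f2, Stard10, Shox2, Epb42, Pecam1, Cdh5, Myh6, Myh7 and Ttn were named after their values were seen. The members and lists were chosen with earlier results of these data known. The labels name single embryos, but no litter, sex or dissection day. Same-numbered samples of the groups did not deviate together, with correlations of -0.02 to 0.02, so the numbers were not taken as pairs.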

Additional observations from a re-analysis of the deposited data

Results flagged for a closer look

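Among 22 sets of 4 embryos examined, the 10 members and Isl1 in each group, 3 held an embryo whose gap to the others was above Dixon's critical value of 0.829 as a share of the range. Chance gives about 1.1 such cases in 22. Dkk1 was at 5.13 log2 CPM in CTRL 2, against 4.72 to 4.74 in the other CTRL embryos, which adds to the difference between the groups. Without CTRL 2 the log2 fold change of Dkk1 was -1.42 (adjusted p = 0.119 by edgeR). Sfrp1 was at 6.55 log2 CPM in CTRL 1, against 6.05 to 6.09 in the others, and without CTRL 1 its log2 fold change turned from -0.05 to 0.08. Sfrp2 was at 0.82 log2 CPM in Isl1_hypo 3, against 2.56 to 2.69 in the others, and without that library its log2 fold change was -0.25 in place of -0.54.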

How the results depend on the processing

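Dkk1 was lower in Isl1_hypo under every one of 14 alternatives and 8 fits without 1 library. Its adjusted p was over 0.05 in 5 of the 14 alternatives and in 6 of the 8 fits without 1 library. Its log2 fold change was -1.27 with globin level as a covariate (adjusted p = 0.9998), -1.71 with Y-linked level (adjusted p = 0.157), -1.43 with mesenchyme level and -1.48 with epicardium level. Leaving out 1 library gave -1.79 to -1.37 for Dkk1 and -2.46 to -2.14 for Isl1. Isl1 stood at -2.30 with globin level (adjusted p = 0.507). DESeq2 called Dkk3 (0.56) and Frzb (-0.79), and limma-voom called Dkk3 (0.71). Dkk2 turned to 0.0435 with epicardium level. Sfrp1 turned to 0.0412 with globin, 0.19 with mesenchyme and 0.22 with epicardium level, and ran from -0.14 to 0.0774 when 1 library was left out. The cause of these shifts was not tested.

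Genes called numbered 37, against 330 by DESeq2, 134 by limma-voom, 0 with globin level, 3 with Y-linked, 5 with mesenchyme and 2 with epicardium level, and 4 to 48 when 1 library was left out. Members called numbered 1, against 3 by DESeq2 and 2 by limma-voom, 0 with globin, Y-linked, mesenchyme or epicardium level (3, 3, 2 and 2 at an unadjusted p under 0.05), and 0 to 1 when 1 library was left out. Members by the study's criterion numbered 2 to 3 with 1 library left out. Sfrp4 has no value where the filter removes it.

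With the replicate number as a block, Dkk1 was at -1.58 (adjusted p = 0.102) and Isl1 at -2.29 (adjusted p = 0.0721), no gene or member passed (1582 genes and 4 members at an unadjusted p under 0.05), and 4 members met the study's criterion. The numbers do not mark pairs in the labels, and each CTRL sample correlated by -0.0209 to 0.0219 with its own number. Other size factors, filters and transcript choices changed no call of a member. Values without a call could move far without changing one, as Wif1 did (0.54, against 2.78 with globin level and 1.68 with epicardium level), and the median of the members ran from -0.46 to 0.0435 over the 14 alternatives and from -0.51 to -0.17 when 1 library was left out. With 4 embryos a group, the intervals of Wif1 and Sfrp5 were wide, and Sfrp4 was too low to test.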
